A study of Homo sapiens with 8 samples.

Results

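The genes described here encode the proteins of the spliceosomal snRNPs, the small nuclear ribonucleoprotein particles that recognise introns and assemble into the spliceosome. The set was drawn up by name from the known composition of the particles and held 49 genes, grouped by the particle to which their products belong. The deposited table named 14528 genes. Rows were found by RefSeq transcript identifier, and 48 of the 49 genes had at least 1 row, 71 transcripts in all. No row was matched to SNRPN, the Sm protein gene expressed mainly in neurons, which was not analysed here. All 48 had a mean of at least 0.5 FPKM (the fragments assigned to a transcript, divided by its length and by the mapped fragments of the library) over the conditions, the limit used for every gene below.

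The cells were SQ20B, an established line from a human head and neck squamous cell carcinoma of the larynx, compared between normoxia, the standard culture, and hypoxia, 0.5% oxygen for 16 hours, with 4 replicates in each condition. The labels give no genetic change or drug in either condition, and all values come from this 1 line. Polyadenylated RNA was sequenced, and the table gave 1 FPKM value per transcript row and condition, the authors' value over the replicates. Values of single replicates and the depth of each library were not analysed here, and the authors' own test columns were not used. The values below therefore carry no error and no test, and a fold of 1.5 is used in place of a threshold.

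The major spliceosome is built from the U1, U2, U4, U5 and U6 snRNPs. U1 pairs with the 5′ splice site, SF1 and the U2AF dimer mark the branch site and the 3′ splice site, U2 replaces SF1 at the branch site, and the joined U4/U6.U5 tri-snRNP brings in the parts of the catalytic centre. The RNAs of U1, U2, U4 and U5 sit in a ring of Sm proteins and the RNA of U6 in a ring of LSM proteins, so nearly every intron removed depends on these proteins.

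Of the 48 genes, 43 were lower in hypoxia than in normoxia and 5 were higher, where 56.4% of the 12106 genes above the limit were lower. The median log2 change, log2(hypoxia FPKM + 0.1) minus log2(normoxia FPKM + 0.1), was -0.35 for the snRNP genes and -0.07 for all genes. In 8 of the 48 the level was lower by at least 1.5-fold, a share of 16.7%, beside 11.2% of all genes. None was higher by at least 1.5-fold, where 9.95% of all genes were. The snRNP genes were thus mostly displaced downward by less than 1.5-fold, with changes between -0.83 for SF3A3 and 0.52 for PRPF8.

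These directions rest in part on the scaling of the columns, which added up to 536005 FPKM for normoxia and 458431 FPKM for hypoxia. Setting the sums equal moved the median of all genes to 0.15 and that of the snRNP genes to -0.13, and quantile normalization moved them to -0.02 and -0.20. With equal sums 32 of 48 snRNP genes were lower, beside 36.3% of all genes. Of the 48, 2 were then lower by at least 1.5-fold (SF3A3 and PRPF4), or 4.17% beside 5.01% of all genes, and 2 were higher by at least 1.5-fold (PRPF8 and SNRNP200), beside 18.3%. Centring on the median gene gave 3 lower by at least 1.5-fold, or 6.25% beside 8.76% of all genes, and 1 higher, beside 12.4%. Quantile normalization gave 4 lower by at least 1.5-fold, or 8.33% beside 9.69%, and 1 higher, beside 10.0%. The share of snRNP genes lower by at least 1.5-fold was thus above that of all genes in the deposited values and below it under these 3 scalings, while the share that was lower by any size stayed above that of all genes. Over the deposited values and these 3 scalings, 32 genes were lower each time, 5 were higher each time, and 11 changed sign. Those 11 were SNRPF, U2AF1, U2AF2, SF3A1, SF3B1, SF3B3, SNRNP27, LSM3, PRPF19, PRPF38A and SNRNP48.

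FPKM is relative to the mapped fragments of a condition, so a change in total RNA per cell is not seen in it, and in bulk RNA fewer cells of a type and less RNA per cell cannot be told apart. Of the markers of the labelled cell type, 8 of 10 genes listed for squamous epithelium were analysed. KRT5 had 398 FPKM in normoxia and 442 FPKM in hypoxia. The summed level of the 8 genes was 929 FPKM and 932 FPKM. KRT5 and EPCAM had the highest levels and moved in opposite directions, so the sum does not show that each marker was stable. Of the 8 genes, 6 were higher and 2 were lower (25%, beside 56.4% of all genes). Their median log2 change was 0.15, beside -0.07 for all genes. The lower genes were EPCAM, with 317 FPKM and 233 FPKM (-0.45), and KRT6A, with 5.10 FPKM and 3.26 FPKM (-0.63). The highest change was that of ITGB4, with 2.06 FPKM and 3.79 FPKM (0.85). Of 13 markers of blood, endothelial, stromal and neural cells, 3 had a matched row, and CDH5 was the highest at 4.78 FPKM in normoxia and 2.83 FPKM in hypoxia. No row was matched to the squamous genes KRT14 and PKP1 or to LDHA of the hypoxia response list either. A missing row therefore does not show that a gene was not expressed. All 9 hypoxia response genes analysed were higher in hypoxia by at least 1.5-fold, where 9.95% of all genes were. They were listed as known HIF targets, with earlier results of these data known, so this count could be foreseen and is no independent result. CA9, the carbonic anhydrase induced by HIF, had 0.694 FPKM in normoxia and 21.6 FPKM in hypoxia.

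**Figure D1:**
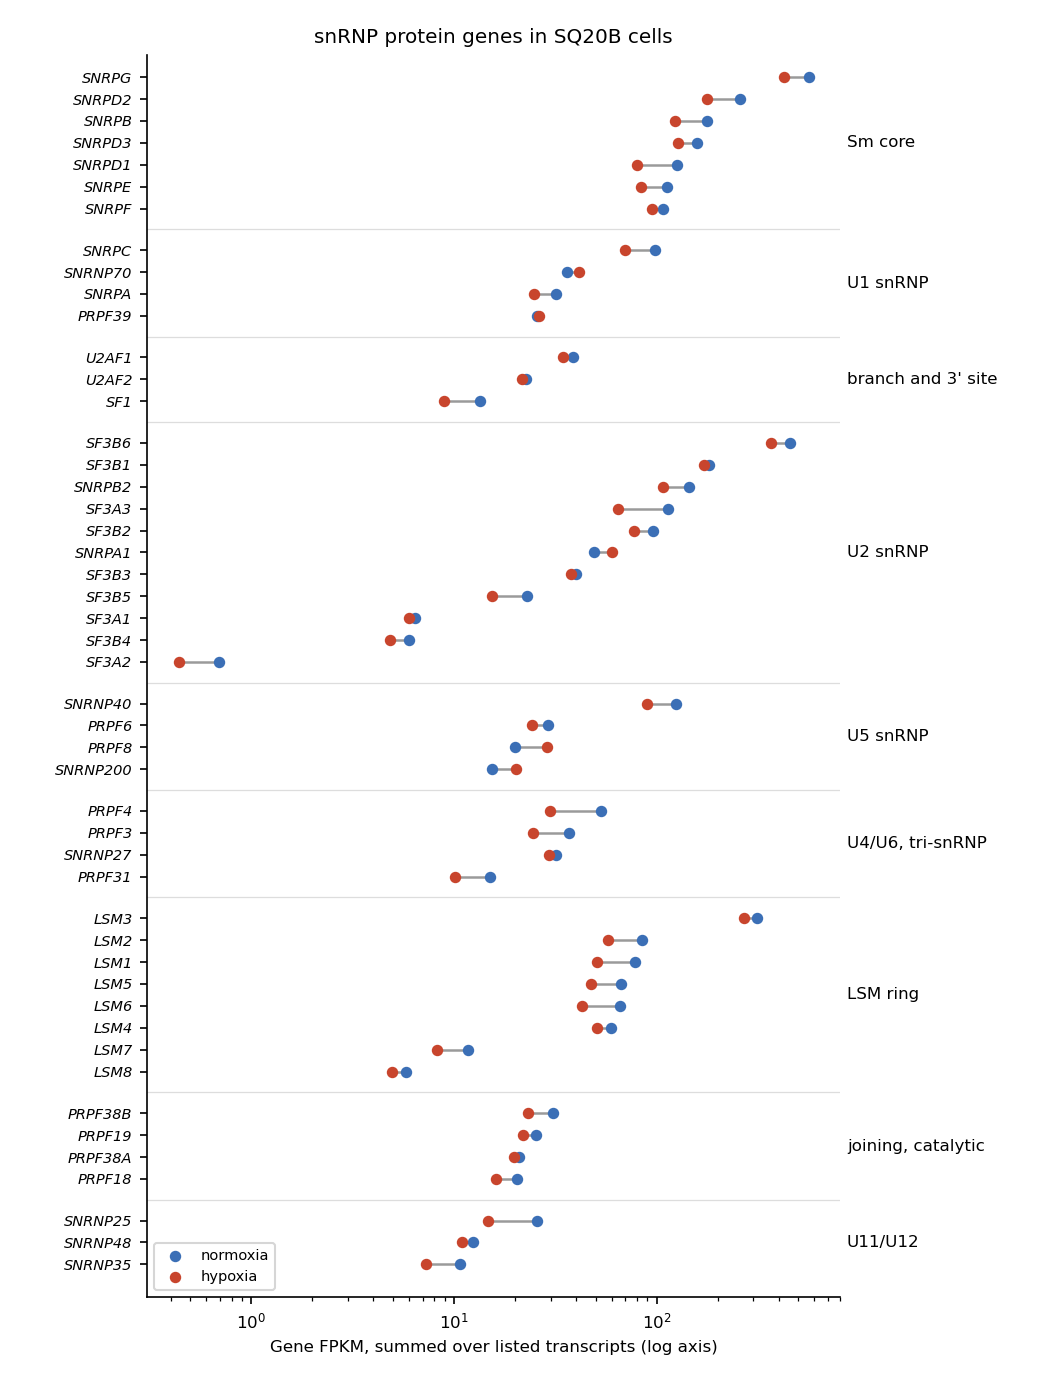
FPKM of the 48 snRNP protein genes (log axis) in normoxia (blue) and hypoxia (red), 1 value per condition, grouped by particle and ordered by the normoxia level. The hypoxia point lies to the left of the normoxia point for 43 genes and to the right for SNRNP70, PRPF39, SNRPA1, PRPF8 and SNRNP200; with equal FPKM sums 32 genes would lie to the left.

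The Sm proteins form a ring of 7 around the snRNA, and all 7 of their genes analysed here were lower in hypoxia, with a median log2 change of -0.43, although SNRPF crossed to 0.04 with equal FPKM sums and to 0.05 after quantile normalization. SNRPD1 had 125 FPKM in normoxia and 79.9 FPKM in hypoxia, a change of -0.65 and the only Sm gene past 1.5-fold. SNRPD2 had 257 FPKM and 178 FPKM (-0.53), and SNRPB had 177 FPKM and 123 FPKM (-0.53). These proteins pair in the ring as SmD1 with SmD2 and SmB with SmD3. SNRPD3 was at 159 FPKM and 127 FPKM, a smaller change of -0.32 than that of its partner SNRPB. For the trimer of SmE, SmF and SmG, SNRPE had 113 FPKM and 83.8 FPKM (-0.43), SNRPF 108 FPKM and 94.6 FPKM (-0.19), and SNRPG 561 FPKM and 424 FPKM (-0.40).

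Although the ring takes up 1 copy of each protein, the levels of the Sm genes spanned 5.20-fold in normoxia and 5.31-fold in hypoxia. The order was led in both conditions by SNRPG and SNRPD2, and the lowest gene was SNRPF in normoxia and SNRPD1 in hypoxia. Small genes such as SNRPG and SNRPE have processed pseudogenes of nearly the same sequence, and the way reads shared with such copies were assigned is not given in the sources used here, so their levels are uncertain.

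SNRPB makes 2 proteins, SmB and the longer SmB′, which differ at the C terminus because the last exon starts at one of 2 acceptors. The acceptors are shown because the 2 transcripts behaved differently. The table gives no isoform names, and the transcript identifiers were assigned to SmB and SmB′ from background knowledge, not by a match of sequences. Both were read from GRCh37 on the minus strand at the last exon of the GENCODE coding models, at chr20:2442576-2442605 for the frame of 231 residues (SmB) and at chr20:2442430-2442459 for the frame of 240 residues (SmB′). The lower case letters are the 20 last intron bases before each acceptor and the capitals the first 10 exon bases.
SmB acceptor: acttcttactcttacttcagGCCTTCTTTG
SmB′ acceptor: ttgtctggtttcccttacagGGCCCCCTCC

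NM_003091, the SmB transcript, had 149 FPKM in normoxia and 118 FPKM in hypoxia, a log2 change of -0.33. NM_198216, the SmB′ transcript, had 27.9 FPKM and 4.28 FPKM, a change of -2.68 and 6.39 times less on the FPKM + 0.1 scale. The SmB′ transcript thus went from 15.8% to 3.49% of the SNRPB FPKM, a shift of 12.3 percentage points, and its difference of 23.6 FPKM made up 43.6% of the difference in the gene sum. Among the 15 snRNP genes with more than 1 listed transcript, SNRPB was the only one whose largest share shift reached 10 percentage points, where 14.1% of 5133 genes with more than 1 transcript reached it. Transcript FPKM of overlapping models is an estimate, and the error of the split was not analysed here.

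**Figure D2:**
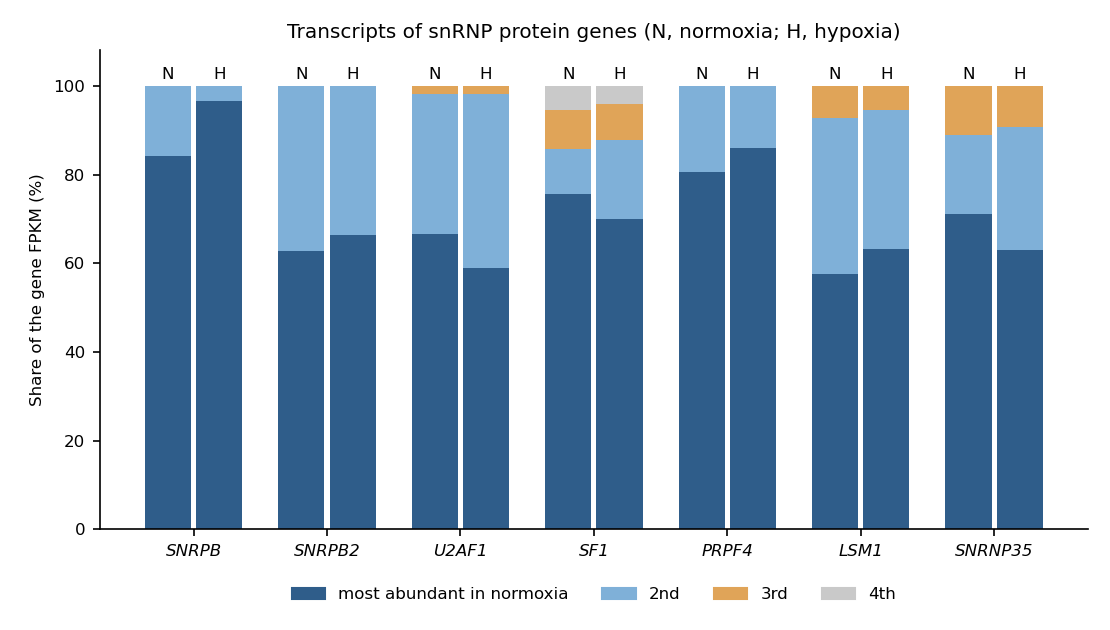
Share of the summed FPKM (%) carried by each listed transcript in normoxia (N) and hypoxia (H) for 7 snRNP genes, transcripts stacked from the most abundant in normoxia upward, 1 value per condition. The upper block of SNRPB, the SmB′ transcript, shrinks from 15.8% to 3.49%, and the shares of the other genes shift by less than 10 percentage points.

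In the U1 snRNP the genes divided under every scaling. SNRNP70, whose product binds the first stem loop of U1 RNA, had 36.2 FPKM in normoxia and 41.5 FPKM in hypoxia (log2 change 0.20). SNRPA, which binds the second stem loop, had 32.0 FPKM and 24.7 FPKM (-0.37), and SNRPC, which steadies the pairing of U1 with the 5′ splice site, had 98.2 FPKM and 69.8 FPKM (-0.49). SNRNP70 and SNRPA thus lay closer together in normoxia than in hypoxia. PRPF39, a U1-associated factor in alternative 5′ splice site choice, had 25.6 FPKM and 26.3 FPKM (0.03).

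Of the genes for branch site and 3′ splice site recognition, SF1, the branch point binding protein, had the larger change, from 13.4 FPKM to 8.89 FPKM (-0.59). U2AF2, which binds the polypyrimidine tract, had 22.7 FPKM and 21.7 FPKM (-0.07), and U2AF1, which reads the AG of the 3′ splice site, had 38.8 FPKM and 34.7 FPKM (-0.16). Both U2AF changes turned positive with equal FPKM sums, to 0.16 for U2AF2 and 0.06 for U2AF1, whereas SF1 stayed at -0.37. Of the 4 SF1 transcripts, NM_201998 carried 75.6% of the FPKM in normoxia and 70.0% in hypoxia, and NM_201997 carried 10.2% and 17.8%.

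U2AF1 has 2 versions of 1 exon that are used in turn and give proteins of 240 residues each. They are printed because the transcripts assigned to them moved in opposite directions in the deposited values. That assignment too is background knowledge and was not checked by sequence. They lie on the minus strand of GRCh37 at chr21:44520563-44520629 (isoform a) and chr21:44521476-44521542 (isoform b). Each is 67 bases long, and capitals mark the 23 positions at which they differ.
isoform a exon: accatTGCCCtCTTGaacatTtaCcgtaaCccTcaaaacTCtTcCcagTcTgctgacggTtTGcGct
isoform b exon: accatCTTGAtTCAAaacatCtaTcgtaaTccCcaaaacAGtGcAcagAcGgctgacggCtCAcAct

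NM_006758, the transcript of isoform a, had 25.8 FPKM in normoxia and 20.4 FPKM in hypoxia (-0.33). NM_001025203, the transcript of isoform b, had 12.3 FPKM and 13.6 FPKM (0.14). Isoform b thus made up 31.7% of the U2AF1 FPKM in normoxia and 39.1% in hypoxia, a shift below 10 percentage points.

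In the U2 snRNP 10 of 11 genes were lower, and 3 of these (SF3A1, SF3B1 and SF3B3) changed sign under another scaling. SNRPA1 and SNRPB2 encode a pair of proteins that bind U2 RNA side by side. SNRPA1 was the one U2 gene that was higher, with 49.3 FPKM in normoxia and 60.3 FPKM in hypoxia (0.29), while SNRPB2 had 145 FPKM and 108 FPKM (-0.43). The 2 genes for these neighbouring proteins thus differed in direction under each scaling. Both SNRPB2 transcripts were lower, NM_198220 with 91.1 FPKM in normoxia and 71.6 FPKM in hypoxia and NM_003092 with 54.0 FPKM and 36.2 FPKM.

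SF3A, the trimer that joins the U2 particle to its SF3B part, held the gene with the lowest change of all 48 under every scaling. That gene was SF3A3, except after quantile normalization, where SF3A2 was lowest and SNRNP25 and PRPF4 also lay below SF3A3. SF3A3 had 114 FPKM in normoxia and 64.2 FPKM in hypoxia, and fell by 43.9% (log2 change -0.83). SF3A1 had 6.45 FPKM and 5.97 FPKM (-0.11), and SF3A2 had 0.690 FPKM and 0.438 FPKM (-0.55), close to the limit on low values. SF3A2 alone lay in the lowest 2% of all genes by level, although its product is a core subunit, and its change ranged from -0.37 with equal sums to -0.76 after quantile normalization.

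Within SF3B, SF3B1 and SF3B3 had the smallest changes in the deposited values, but not with equal FPKM sums, where both were at 0.15, nor after quantile normalization, where SF3B1 was at 0.19. SF3B1, which clasps the branch helix, had 180 FPKM in normoxia and 171 FPKM in hypoxia (-0.07), and SF3B3, its scaffold partner, had 39.9 FPKM and 37.9 FPKM (-0.07). SF3B2 had 96.2 FPKM and 76.9 FPKM (-0.32), and its binding partner SF3B4 had 6.03 FPKM and 4.83 FPKM (-0.31). SF3B6, the subunit at the branch point adenosine, had 455 FPKM and 366 FPKM (-0.31). The smallest subunit, SF3B5, had 23.0 FPKM and 15.4 FPKM (-0.58), just outside 1.5-fold, as SF1 and PRPF3 at -0.59 were just inside. Levels over the 9 SF3A and SF3B genes spanned 659-fold in normoxia and 836-fold in hypoxia, with SF3B6 highest and SF3A2 lowest. These ratios rest on SF3A2, close to the limit on low values, and are uncertain.

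The U5 genes held the 2 highest changes of the set in the deposited values, and that of PRPF8 was the highest under every scaling. PRPF8, the large protein that cradles the catalytic centre, had 20.1 FPKM in normoxia and 28.9 FPKM in hypoxia (0.52). SNRNP200, the helicase Brr2 that unwinds U4 from U6, had 15.4 FPKM and 20.1 FPKM (0.38). Neither passed 1.5-fold in the deposited values, while PRPF8 passed it under each of the other scalings and SNRNP200 with equal sums. The other U5 genes went the opposite way: PRPF6, a bridge within the tri-snRNP, had 29.2 FPKM and 24.3 FPKM (-0.27), and SNRNP40, a WD repeat protein, had 125 FPKM and 89.3 FPKM (-0.48). The U5 levels therefore lay closer together in hypoxia, at a ratio of 4.44 between highest and lowest beside 8.11 in normoxia.

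All 4 genes of U4/U6 and the tri-snRNP were lower in the deposited values, with a median of -0.58, the lowest of the groups except after quantile normalization, where that of U11/U12 was lower. PRPF3 and PRPF4 encode partners on the U4/U6 duplex. PRPF4 had 53.0 FPKM in normoxia and 29.8 FPKM in hypoxia, and fell by 43.7% (-0.83). PRPF3 had 36.9 FPKM and 24.5 FPKM (-0.59), and PRPF31, which binds U4 RNA, had 15.1 FPKM and 10.2 FPKM (-0.56). SNRNP27, a small tri-snRNP protein, differed least, with 32.0 FPKM and 29.5 FPKM (-0.12), and was higher by 0.11 with equal FPKM sums and by 0.02 after quantile normalization. Both PRPF4 transcripts were lower, NM_001244926 with 42.7 FPKM and 25.6 FPKM and NM_004697 with 10.3 FPKM and 4.16 FPKM. Of SNRNP27, the noncoding NR_037862 made up 13.6% in normoxia and 10.6% in hypoxia.

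LSM2 to LSM8 form the ring on the end of U6 RNA, and LSM1 replaces LSM8 in a cytoplasmic ring that promotes mRNA decapping. All 8 genes were lower in the deposited values, with a median of -0.50, and LSM3 alone changed sign, to 0.02 with equal FPKM sums and 0.12 after quantile normalization. LSM1 had 77.9 FPKM in normoxia and 50.5 FPKM in hypoxia (-0.62), and LSM8, the subunit particular to the nuclear ring, had 5.79 FPKM and 4.92 FPKM (-0.23). The LSM1 sum was 13.4 times the LSM8 level in normoxia and 10.3 times in hypoxia, and its coding transcript NM_014462 alone was 4.74 times and 3.22 times the LSM8 level. LSM6 had 65.9 FPKM and 43.0 FPKM (-0.61), the other LSM gene past 1.5-fold.

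Of the remaining shared LSM subunits, LSM2 had 84.3 FPKM in normoxia and 57.7 FPKM in hypoxia (-0.55), LSM5 had 66.7 FPKM and 47.2 FPKM (-0.50), and LSM7 had 11.8 FPKM and 8.28 FPKM (-0.50). LSM4 had 59.7 FPKM and 51.0 FPKM (-0.23) and LSM3 had 311 FPKM and 269 FPKM (-0.21). The LSM2 to LSM8 ring spanned 53.7-fold in normoxia and 54.7-fold in hypoxia, from LSM8 to LSM3, a wider range than that of the Sm genes. Of the LSM1 FPKM in normoxia, 57.5% was on the noncoding transcript NR_045493 and 35.2% on the coding NM_014462, which went from 27.5 FPKM to 15.9 FPKM. LSM2 was listed on an alternate haplotype of chromosome 6, and reads on the primary chromosome were not analysed here. The LSM1 locus in the table also holds BAG4, and SNRPD3, PRPF39, SF3A1, PRPF31 and SNRNP35 share their loci with another gene too, 6 of the 48 in all.

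None of the 4 genes of the joining and catalytic step factors changed by 1.5-fold. Of all genes, 11.2% were lower and 9.95% higher by at least that much, so few would be looked for among 4 genes. PRPF19, the ubiquitin ligase at the core of the complex that bears its name, had 25.5 FPKM in normoxia and 21.9 FPKM in hypoxia (-0.22), and PRPF18, a factor of the second step, had 20.5 FPKM and 16.2 FPKM (-0.34). PRPF38A, needed for activation of the spliceosome, had 20.9 FPKM and 19.8 FPKM (-0.08), and its relative PRPF38B had 30.8 FPKM and 23.1 FPKM (-0.41). PRPF19 and PRPF38A changed sign with equal FPKM sums, to 0.00 and 0.14.

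The minor spliceosome removes a small class of introns and has its own U11/U12 particle. SNRNP25 had 25.7 FPKM in normoxia and 14.6 FPKM in hypoxia and fell by 42.9% (-0.80). SNRNP35, the counterpart of SNRNP70 in U11, had 10.7 FPKM and 7.27 FPKM (-0.55), opposite in sign to SNRNP70 under each scaling. SNRNP48, which recognises the 5′ splice site of these introns, had 12.4 FPKM and 10.9 FPKM (-0.18), and was at 0.04 with equal FPKM sums. The 2 coding SNRNP35 transcripts differed, with NM_022717 going from 71.0% to 63.0% of the gene and NM_180699 from 17.9% to 27.7%. The noncoding NR_104103 went from 11.1% to 9.33%.

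**Figure D3:**
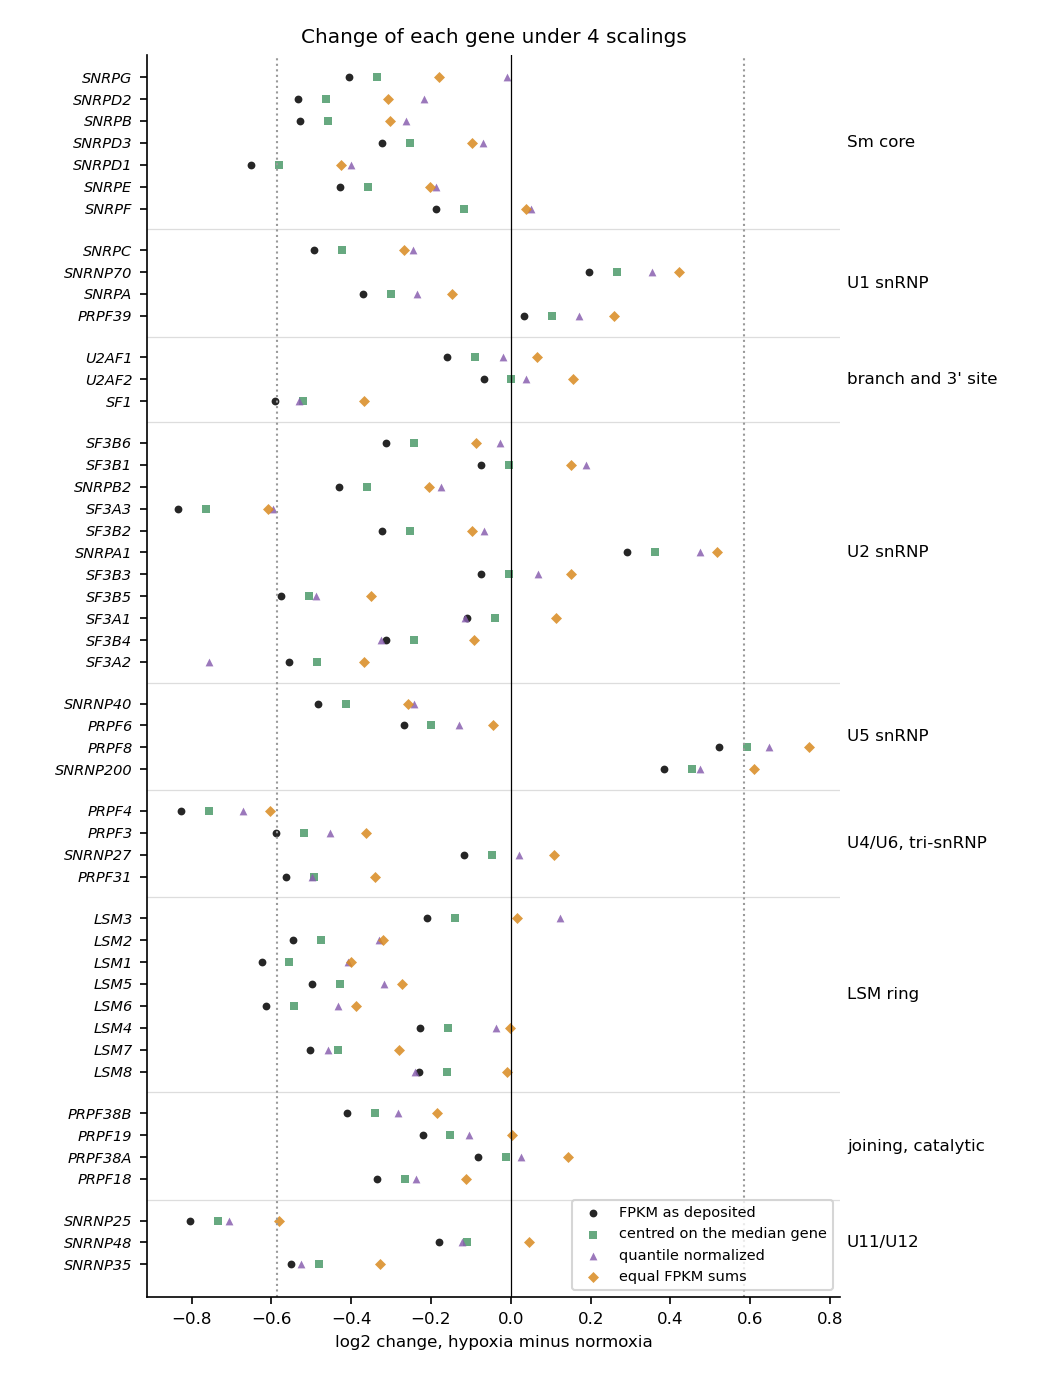
Log2 change (hypoxia minus normoxia) of each snRNP gene in the deposited FPKM (circles), after centring on the median gene (squares), after quantile normalization (triangles) and with equal FPKM sums (diamonds). Dotted lines mark 1.5-fold; 32 genes lie below 0 and 5 above 0 under all 4, and the 11 others cross 0.

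Genes that work with the snRNP proteins were described from lists of known function. Of 44 other spliceosome proteins analysed, 39 were lower in the deposited values (88.6%, beside 56.4% of all genes), with a median of -0.32. By at least 1.5-fold, 7 were lower (15.9%, beside 11.2%) and 1 was higher (2.27%, beside 9.95%). The median was -0.09 with equal FPKM sums, -0.25 after centring and -0.21 after quantile normalization. The medians of all genes were then 0.15, 0 and -0.02. PUF60, a U2AF-related factor, had 12.8 FPKM in normoxia and 6.07 FPKM in hypoxia (-1.07), and PHF5A, the remaining SF3B subunit, had 124 FPKM and 67.9 FPKM (-0.87). Both belong to the U2-associated group, as does U2SURP, with 62.8 FPKM and 41.7 FPKM (-0.59), and all 6 genes of that group were lower. TXNL4A, a small U5 protein, had 33.7 FPKM and 20.3 FPKM (-0.73), and PPIL1, a cyclophilin of the spliceosome, had 82.5 FPKM and 46.3 FPKM (-0.83). LUC7L, a U1-associated protein, had 16.5 FPKM and 10.5 FPKM (-0.64). RNPC3, which encodes a protein of the minor particle, was the gene that was higher by at least 1.5-fold, with 8.33 FPKM and 13.2 FPKM (0.66).

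The list of snRNP assembly factors held 7 partners in the SMN complex, which loads the Sm ring onto the snRNA in the cytoplasm. It also held 3 genes for modifying Sm tails and 6 listed under import and cap. The median of this list was the lowest of these lists, -0.49 in the deposited values. It was -0.27 with equal FPKM sums, -0.42 after centring and -0.40 after quantile normalization. Of the 16 genes, 15 were lower (93.75%, beside 56.4% of all genes) and 5 were lower by at least 1.5-fold (31.25%, beside 11.2%). WDR77, a partner of the methyltransferase PRMT5 in modifying Sm tails, had 103 FPKM in normoxia and 47.8 FPKM in hypoxia (-1.10), and PRMT5 itself had 45.1 FPKM and 26.2 FPKM (-0.78). GEMIN6 and GEMIN5, members of the SMN complex, had changes of -0.97 and -0.82, and GEMIN5 is the subunit that reads the snRNA. TGS1, which makes the cap of snRNAs, had 39.0 FPKM and 24.2 FPKM (-0.69).

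Of the decapping partners of LSM1, 4 of 7 were lower in the deposited values (57.1%, beside 56.4% of all genes). None passed 1.5-fold, where 11.2% of all genes were lower and 9.95% higher by at least that much. Their median was -0.03 in the deposited values, 0.20 with equal FPKM sums, 0.04 after centring and 0.02 after quantile normalization. DDX6, the helicase that binds the cytoplasmic LSM ring, had 48.6 FPKM in normoxia and 51.9 FPKM in hypoxia (0.09). The SR proteins and hnRNPs guide splice site choice and are not part of the snRNPs. Of these, 25 of 33 were lower (75.8%, beside 56.4% of all genes) and 8 were lower by at least 1.5-fold (24.2%, beside 11.2%). Their median was -0.17 (0.06 with equal FPKM sums and after quantile normalization), with 12 of 13 SR genes and 13 of 20 hnRNP genes lower. The counts of all these lists are those of the deposited values, and counts under the other scalings were not made. The difference between these lists and the snRNP genes was not tested.

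**Figure D4:**
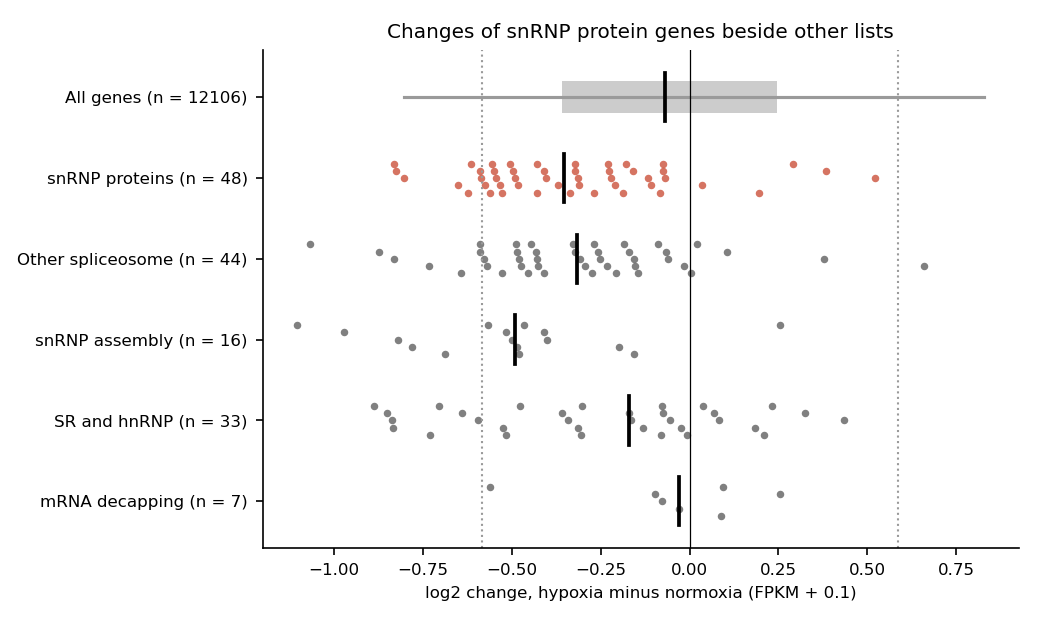
Log2 change (hypoxia minus normoxia) of the snRNP genes (red) and of 4 related lists (grey), 1 point per gene, with the median as a black bar; for all genes the box spans the middle 50% and the line the middle 90%. Dotted lines mark 1.5-fold. The snRNP median lies at -0.35 and that of all genes at -0.07, and both shift upward with equal FPKM sums, to -0.13 and 0.15.

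The snRNP genes were well above the typical level, with a median mean FPKM of 37.8 beside 9.23 for all genes, and 28 of 48 were in the top 25%. Among all genes with a mean of at least 10 FPKM, a limit chosen after seeing the data, 68.3% were lower and the median was -0.18. At the same limit 38 of 43 snRNP genes were lower and the median was -0.37. The distance between the medians was thus smaller among abundant genes than over the whole table.

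The coding length of each gene was taken from the Ensembl canonical transcript in GENCODE, and it ranged from 76 residues for SNRPG to 2335 for PRPF8. Longer genes had higher changes among the snRNP genes, with a Spearman correlation of 0.33 across 48 genes, and among all genes with a value, 0.25 across 11055 genes. All genes come from the same pair of values and are not independent, so this is a description. Each of the 19 snRNP genes under 200 residues was lower in the deposited values, with a median of -0.49, although SNRPF, SNRNP27 and LSM3 changed sign under other scalings, where 73.3% of 1486 genes of that length were lower, with a median of -0.23. Of the 4 snRNP genes of at least 1000 residues, PRPF8 and SNRNP200 were higher and SF3B1 and SF3B3 lower, and 34.0% of 1460 genes of that length were lower. After quantile normalization the correlation across the snRNP genes was 0.20. The number of listed transcripts had a correlation of -0.16 with the change.

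**Figure D5:**
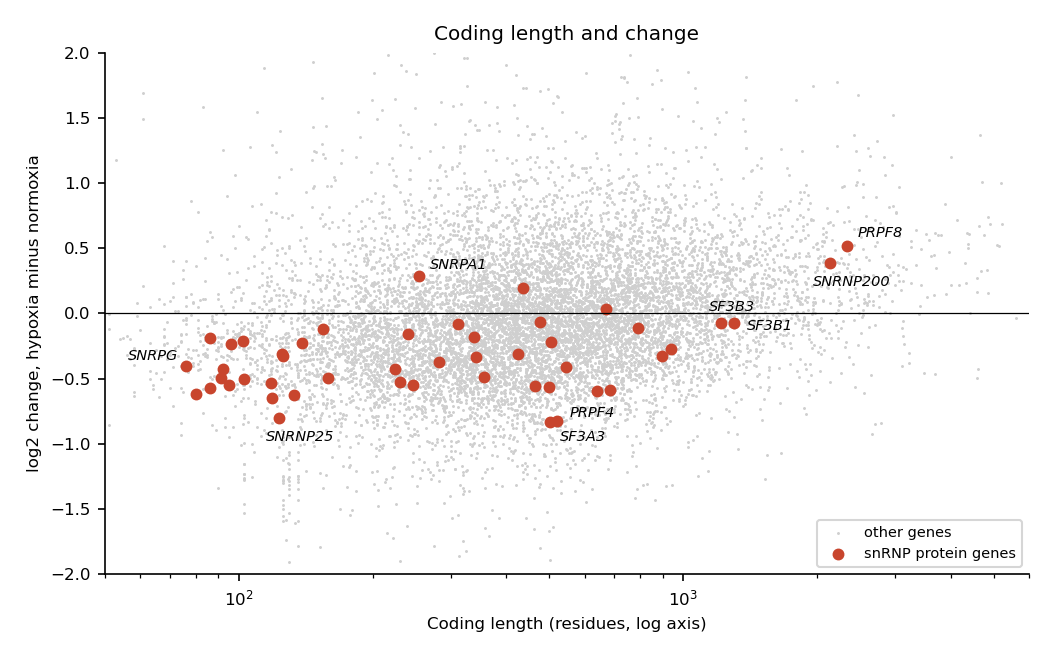
Coding length (residues, log axis) against log2 change (hypoxia minus normoxia) for the snRNP genes (red) and all other genes above the limit with a coding length (grey), 1 point per gene; genes outside the axes are not drawn. The snRNP genes under 200 residues lie below 0 (SNRPF, SNRNP27 and LSM3 cross 0 with equal FPKM sums) and the longest, SNRNP200 and PRPF8, above it, with a Spearman correlation of 0.33 across 48 genes that was 0.20 after quantile normalization.

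Promoters of the snRNP genes were read from RefSeq (GRCh38.p14), 250 bases before the gene start, for 41 of the 48 genes. The ETS core CCGGAAG, on either strand, was present in 19 of 41, or 46.3%, beside 16.8% of 9671 promoters of genes above the limit and 19.5% of those of genes with a mean of at least 10 FPKM. The core of the hypoxia response element, ACGTG or GCGTG on either strand, was present in 32 of 41, or 78.0%, beside 57.8% and 60.4%. The E-box CACGTG, which overlaps ACGTG, was present in 2 of 41, or 4.88%, beside 8.85%. These are matches of letters and not measured binding. The promoters of the snRNP genes with the lowest and the highest change in the deposited values are given, at chr1:37990023-37990272 for SF3A3 and chr17:1684868-1685117 for PRPF8, both on the minus strand, with ETS cores and hypoxia response element cores of either strand in capitals.
SF3A3 promoter: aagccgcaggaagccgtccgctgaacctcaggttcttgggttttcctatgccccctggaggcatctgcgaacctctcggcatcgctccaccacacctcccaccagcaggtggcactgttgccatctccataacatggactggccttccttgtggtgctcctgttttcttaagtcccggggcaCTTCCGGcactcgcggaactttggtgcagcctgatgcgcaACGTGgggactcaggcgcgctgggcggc
PRPF8 promoter: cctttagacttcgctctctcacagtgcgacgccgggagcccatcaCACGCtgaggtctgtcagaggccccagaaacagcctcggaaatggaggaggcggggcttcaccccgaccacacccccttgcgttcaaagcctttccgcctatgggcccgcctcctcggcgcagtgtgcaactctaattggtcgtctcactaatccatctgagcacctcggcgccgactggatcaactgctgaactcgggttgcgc

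The SF3A3 window holds 1 ETS core and 1 hypoxia response element core, and the PRPF8 window holds 1 hypoxia response element core and no ETS core.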

How the data were processed

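Poly(A)-selected, stranded RNA-seq libraries of SQ20B cells (4 normoxia, 4 hypoxia) were aligned by the authors to RefSeq hg19 with STAR 2.3.0.1 and quantified with Cufflinks 2.1.1. The deposited table held 24812 rows for 24797 distinct transcripts, with 1 FPKM value per row and condition. The authors computed these values over the replicates. The authors' log2 fold change, test statistic, p-value and q-value were also given and were not used here. Depths of single samples were not analysed here, so no counting interval is given. How reads shared between similar genes were assigned is not given in the sources used here.

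Symbols were looked up from the transcript identifiers in the RefSeq annotation of GRCh38.p14 (24293 rows, 97.9%). Named rows that repeated an identifier were kept in the gene sums. FPKM values were summed per gene, changes were computed with a pseudocount of 0.1 FPKM, which understates changes of low genes, and genes with a mean below 0.5 FPKM were left out. Genes past 1.5-fold were counted, and no test was run, since values of single replicates were not analysed and the authors' test columns were left out. All member genes are named. Of the other spliceosome, assembly and decapping lists, the 12 genes with the largest changes past 1.5-fold are named, and of the members' transcripts those with at least 10% of the gene FPKM where more than 1 reached it. DDX6, CA9, KRT5, EPCAM, KRT6A, ITGB4 and CDH5 were chosen after their values were seen. The members and lists were chosen with earlier results of these data known. The classes under 200 and of at least 1000 residues and the promoter motifs were not in the original plan of comparisons. Coding lengths came from GENCODE v44 lifted to GRCh37, in place of protein lengths. Alternative pseudocounts, limits, scalings, folds and transcript choices were tried. Python 3.11.15, numpy 2.4.6, pandas 2.3.3, scipy 1.17.1 and matplotlib 3.10.9 were used.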

Additional observations from a re-analysis of the deposited data

How the results depend on the processing

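The median log2 change of the snRNP genes was negative and between 32 and 43 genes were lower under every alternative tried. The count past 1.5-fold depended on the scaling. Equal FPKM sums gave a median of -0.13 (all genes 0.15) with 2 genes lower and 2 higher by at least 1.5-fold (all genes 5.01% and 18.3%). Quantile normalization gave a median of -0.20 (all genes -0.02), with 4 lower and 1 higher (all genes 9.69% and 10.0%) and a length correlation of 0.20. Median centring gave 3 lower and 1 higher (all genes 8.76% and 12.4%). A lower threshold, 0.32 on the log2 scale, gave 27 of 48 lower, or 56.25%, beside 27.8% of all genes. It gave 2 higher, or 4.17%, beside 20.6% of all genes. A fold of 2 gave 0 lower, beside 2.62% of all genes. Of the 8 genes lower by at least 1.5-fold, SF3A3 and PRPF4 stayed past it under each scaling. A pseudocount of 1 FPKM kept 6 of the 8. The alternative pseudocounts, the limits of 1 and 10 FPKM or none, the most abundant transcript, coding transcripts only and the omission of genes at shared or haplotype loci changed no count by over 1.5 times. The limit of 10 FPKM, the coding transcripts and the omission of loci were chosen after seeing the data. Replicates could not be left out in turn, as no values of single replicates were analysed. No paired analysis was possible because the columns hold 1 value per condition and carry no replicate number. The cause of the lower FPKM sum in hypoxia was not tested.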
